A study of Mus musculus with 6 samples.

Results

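The insulin-like growth factor (IGF) system was followed in RNA of dopaminergic neurons sorted from the SNc (substantia nigra pars compacta), a midbrain nucleus that sends dopamine fibres to the dorsal striatum. Its 10 members, out of 23337 gene symbols in the deposited table, were matched by symbol: the ligands Igf1 and Igf2, the receptors Igf1r, Insr and Igf2r, and the binding proteins Igfbp2, Igfbp3, Igfbp4, Igfbp5 and Igfbp6. The set was chosen by family name with the Sox6+ against Sox6- differences of these same libraries, that of Igfbp4 above all, already known, so the members' values in that contrast are given as a description and without p-values. Of the 10, 8 averaged at least 10 normalized reads over the 6 libraries and entered the fit over 13175 genes, while Igf2 and Igfbp6 fell below that level.

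Neurons were sorted from adult C57BL/6 mice that all carried Sox6-FSF-Cre, Th-2A-Flpo and RC-Frepe. Flp recombinase is made under Th. Cre is made under Sox6 from an allele with an FRT-flanked stop (FSF), so it needs Flp first. The reporter marks cells that had both recombinases by GFP and cells that had Flp alone by mCherry. Recombination is permanent, so the colour records that a driver was active and not the level of Sox6 at the time of sorting. The GFP neurons (Sox6+) and the mCherry neurons (Sox6-) gave 3 libraries each, numbered 103, 825 and 1211 in both groups. Separate animals are not stated for the libraries, so p-values measure the spread between libraries, which may be technical. Values are normalized read counts, which are reads divided by a size factor for each library.

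IGF1 and IGF2 are secreted peptides that act mainly through the tyrosine kinase receptor IGF1R, which is closely related to the insulin receptor. The IGF2 receptor has no kinase and takes up IGF2 for degradation. The IGF binding proteins hold the peptides outside the cell, where they can keep them from the receptor or carry them to it, and proteases such as PAPP-A cut some of them to set the ligand free. In the brain IGF1 supports the growth and survival of neurons, midbrain dopamine neurons among them.

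The libraries held between 10397924 and 12952768 reads in genes. Sox6 lay at 840.5, 461.2 and 389.0 in Sox6+ libraries, against 103.6, 18.1 and 36.2 in Sox6- libraries, in the order 103, 825 and 1211, and the groups did not overlap. All 12 listed dopaminergic markers were read in each group. Their summed level ran from 151182.6 to 260810.6 in Sox6+ and from 46220.6 to 143084.5 in Sox6- libraries. The summed level of 10 GABAergic markers ran from 14.8 to 17826.5 in Sox6+ libraries and from 4537.8 to 16288.8 in Sox6- libraries. Single markers of that list were far apart between the groups, and their values stand beside Igfbp4. Sox6+ library 825 stood apart by its macrophage transcripts: 14 microglia and macrophage markers summed to 28663.3 there, to 77.9 and 50.8 in Sox6+ libraries 103 and 1211, and to between 18.1 and 30.7 in Sox6- libraries. In such bulk samples fewer cells of a type and less RNA per cell cannot be told apart.

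The members whose Sox6+ and Sox6- libraries did not overlap were Igf1, higher in Sox6+ neurons, and Igfbp4, lower in Sox6+ neurons. This is 1 of 8 tested members in each direction, where 7.86% of all tested genes were separated with higher and 9.19% with lower values in Sox6+ neurons. The other 6 tested members overlapped between the groups. The threshold of an adjusted p of 0.05 in limma was passed by 1 member, Igfbp4, lower in Sox6+ neurons, against 0.304% of all tested genes in either direction and 0.175% lower. Igfbp4 did not pass with edgeR on recovered reads, where 0.0455% of genes did, and it passed without Sox6+ library 103 but not without any 1 of the other 5 libraries. As the members were chosen with this contrast in view, nothing is read from either count. Over the 8 members the median log2 difference was 0.09, beside -0.02 over all tested genes, with 4 members higher on this scale in Sox6+ neurons.

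The windows of 250 bases before the RefSeq starts of these separated genes (GRCm38.p6) are shown because Igfbp4 and Igf1 lay on opposite sides of the comparison. The Igfbp4 window is chr11:99040994-99041243 and the Igf1 window is chr10:87860861-87861110, both on the plus strand and written 5′ to 3′ with each CG dinucleotide in capitals.
Igfbp4: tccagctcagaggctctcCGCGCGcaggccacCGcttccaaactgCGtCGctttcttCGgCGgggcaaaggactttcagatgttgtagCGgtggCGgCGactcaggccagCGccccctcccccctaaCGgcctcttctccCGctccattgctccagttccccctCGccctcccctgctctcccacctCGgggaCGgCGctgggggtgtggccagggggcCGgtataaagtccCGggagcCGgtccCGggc
Igf1: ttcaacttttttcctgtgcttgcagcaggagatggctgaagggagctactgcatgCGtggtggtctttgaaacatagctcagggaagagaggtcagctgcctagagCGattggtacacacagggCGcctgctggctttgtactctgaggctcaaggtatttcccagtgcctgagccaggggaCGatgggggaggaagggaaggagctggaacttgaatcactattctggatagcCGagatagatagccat
The Igfbp4 window held 22 CG dinucleotides and was 69.2% G or C, whereas the Igf1 window held 5 and was 52.8% G or C. The medians over 32851 windows of the same length were 6 CG dinucleotides and 52.4%, so the Igfbp4 window was the richer in CG and the Igf1 window lay near the median. These windows are unlike in place. The Igf1 window lies inside the annotated gene, which starts at 87858265, while the Igfbp4 window ends just before its gene starts at 99041244. The letters AACAAT, the core of the SOX family motif, were searched on both strands. They were in neither window, in 1 of 13 windows of 9 members (1 of the Igf2 starts), and in 9.42% of all windows, which says nothing of where Sox6 binds.

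Igf1, the main growth factor of the system, was the ligand read in every library. It lay at 1020.1, 1410.8 and 1083.1 in Sox6+ libraries 103, 825 and 1211, against 718.6, 407.9 and 118.7 in the Sox6- libraries of the same numbers. Every Sox6+ library was above every Sox6- library, and the highest was 1.38 times the lowest in Sox6+ but 6.05 times the lowest in Sox6-. The mean was 1171.3 ± 209.8 in Sox6+ neurons and 415.0 ± 300.0 in Sox6- neurons (SD, n = 3 each), a ratio of 2.82. On the log2(value + 1) scale the difference was 1.82 with a standard error of 0.617. Between libraries of the same number it was 0.50, 1.79 and 3.18 for 103, 825 and 1211, so the direction was shared and the size was not. Without Sox6- library 1211, the lowest, the log2 difference was 1.10.

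Igf1 is also made by microglia and macrophages. The sum of their markers was high in Sox6+ library 825 alone, the library with the highest Igf1. Of the 14 markers, Tmem119 and Itgam were at 0 in every library, and Lyz2 at 26494.1 made up most of the sum in library 825. Of the 6 tested markers, 5 had a positive fitted difference. P2ry12 lay at 6.91, 26.2 and 31.4 in Sox6+ libraries 103, 825 and 1211, against 0, 0 and 0.927 in Sox6- libraries. Mrc1 lay at 35.5, 322.3 and 8.32 in Sox6+ libraries, against 0, 3.02 and 0 in Sox6- libraries. In Sox6+ libraries 103 and 1211, where the markers summed to 77.9 and 50.8, Igf1 averaged 1051.6, against 415.0 over the Sox6- libraries. The log2 difference was 1.68 without Sox6+ library 825. The part of microglia and macrophages in the Igf1 difference was not tested. Igf1 occupies bases 87858265 to 87937042 of chromosome 10 (GRCm38, plus strand) and has 8 annotated transcripts, which the deposited counts do not tell apart.

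Igf2, the fetal growth factor, was all but unread, with 2 reads in Sox6+ library 103 and none in the other 5 libraries. Both groups were at or under 3 reads, so no fold is given. In the annotation used here for positions, part of its exons, 3596 bases, is shared with a gene named Gm49394 on the same strand. Gm49394 has no row in the deposited table, so whether the overlap affected the counting of Igf2 is not known. Choroid plexus and ependymal markers, the cells best known in brain for Igf2, summed to 5541.9 in Sox6+ library 1211, with Ttr at 4849.7, and Igf2 was at 0 in that library.

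**Figure D1:**
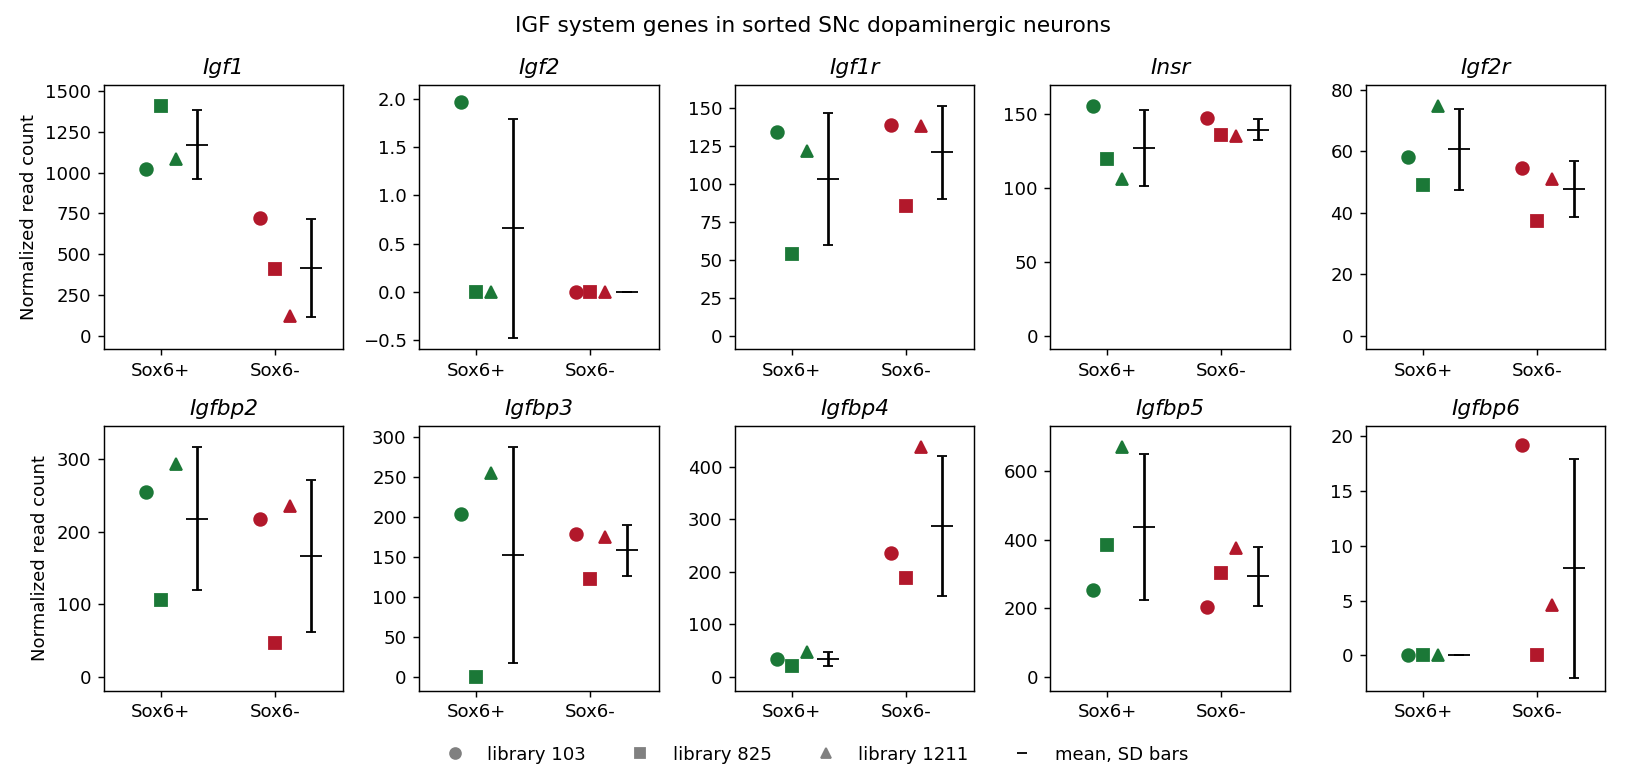
Normalized read count of the 10 IGF system genes in Sox6+ (green, left) and Sox6- (red, right) neurons, 1 panel per gene with its own linear axis; points are libraries by number and black bars show mean and SD of 3 libraries. The Igf1 points of Sox6+ neurons, from 1020.1 to 1410.8, lie above those of Sox6-, the Igfbp4 points from 21.6 to 47.1 lie below, and Igfbp3 is at 0 in Sox6+ library 825.

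The receptor transcripts were read in all 6 libraries, and for none of them were the groups apart. Igf1r, the receptor for IGF1, lay at 134.2, 53.5 and 122.0 in Sox6+ libraries 103, 825 and 1211, against 139.1, 85.6 and 138.2 in Sox6- libraries. The groups overlapped, and library 825 was the lowest in each. On the log2 scale the groups differed by -0.30 (SE 0.448), which became 0.11 without Sox6+ library 825, so its sign rests on that library.

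Insr, the insulin receptor, lay at 155.9, 119.6 and 106.3 in Sox6+ libraries, against 147.7, 136.0 and 135.4 in Sox6- libraries. It was the steadiest member within Sox6- neurons, at 139.7 ± 6.97 (SD, n = 3), against 127.2 ± 25.7 in Sox6+ neurons. On the log2 scale the groups differed by -0.15 (SE 0.315). Igf2r, which clears IGF2 and sorts lysosomal enzymes, lay at 58.2, 49.0 and 74.9 in Sox6+ libraries, against 54.7, 37.3 and 51.0 in Sox6- libraries. In each group 825 was again the lowest, and the groups differed by 0.34 on the log2 scale (SE 0.468). For these 3 receptors the differences were no larger than their standard errors.

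Igfbp4 was the binding protein that set the groups apart. IGFBP4 mostly holds IGFs back from their receptor and is the best known substrate of the protease PAPP-A. It lay at 33.5, 21.6 and 47.1 in Sox6+ libraries 103, 825 and 1211, against 236.0, 187.3 and 437.7 in Sox6- libraries. The highest Sox6+ library was far under the lowest Sox6- library. The mean was 34.1 ± 12.8 in Sox6+ neurons and 287.0 ± 132.8 in Sox6- neurons (SD, n = 3 each), which is 8.42 times as high in Sox6-. These values rest on 104 reads for Sox6+ and 904 for Sox6-.

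The fitted log2 difference of Igfbp4 was -3.01 (SE 0.463). Between libraries of the same number it was -2.78, -3.06 and -3.19, close to one another where those of Igf1 were not. It ran from -3.27 to -2.66 when single libraries were left out. In the authors' deposited table, whose fold change is Sox6- over Sox6+, Igfbp4 had a log2 value of 3.07 with a standard error of 0.503, and Igf1 had -1.50 with 0.486. Vascular and leptomeningeal cells also make Igfbp4 in brain. The endothelial, mural and fibroblast lists of 10 markers each summed to at most 73.0, 44.4 and 28.6 in Sox6+ libraries and to at most 75.8, 52.9 and 16.7 in Sox6- libraries. Cldn5, Cdh5 and Tie1 of endothelial cells, Rgs5 and Myh11 of mural cells, and Col1a1, Col1a2, Col3a1 and Lum of fibroblasts were at 0 in all 6 libraries. The most abundant of each list were Esam, Notch3 and Dcn. Esam was highest in Sox6- library 103, at 72, Notch3 in Sox6- library 825, at 33.2, and Dcn in Sox6+ library 103, at 27.6. The part of vascular and leptomeningeal cells in the Igfbp4 difference was not tested.

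The fitted differences of GABAergic markers had the same sign as that of Igfbp4. Of the 10 listed, 9 were tested, 0 had a positive fitted difference, and the median log2 difference was -4.49 (Sox6+ minus Sox6-), beside -0.02 over all tested genes. Values of 0 in Sox6+ library 825 weigh on these log2 differences, so a negative sign need not hold in every library. Pvalb lay at 400.5, 0 and 868.7 in Sox6+ libraries 103, 825 and 1211, against 60.4, 66.5 and 128.0 in Sox6- libraries. The libraries of 3 markers (Sst, Npy and Lhx6) did not overlap, with lower values in Sox6+ neurons, and 1, Sst, fell past the threshold (adjusted p = 3.31e-05, limma). Sst, the neuropeptide somatostatin, lay at 1.97, 0 and 0 in Sox6+ libraries 103, 825 and 1211, against 3958.3, 3164.2 and 5814.1 in Sox6- libraries. Like Igfbp4, it was highest in Sox6- library 1211 and lowest among the Sox6- libraries in 825. Npy, Lhx6 and Dlx1 were at 0 in every Sox6+ library, and 8 of the 10 markers were at 0 in Sox6+ library 825. The 10 markers summed to 17826.5, 14.8 and 2340.8 in Sox6+ libraries 103, 825 and 1211, where Igfbp4 lay at 33.5, 21.6 and 47.1. The sums were 16288.8, 4537.8 and 15386.2 in Sox6- libraries, where Igfbp4 lay at 236.0, 187.3 and 437.7. In Sox6+ library 103 the sum was made up mostly of Vip, another neuropeptide, at 10756.1, against 557.4 in Sox6- library 103. Vip was at 0 in Sox6+ libraries 825 and 1211, against 75.5 and 2855.6 in the Sox6- libraries of those numbers. Gad1, the enzyme that makes GABA, lay at 4797.5 in Sox6+ library 103, against 7647.0 in Sox6- library 103. The summed level of dopaminergic markers was lower in each Sox6- library than in any Sox6+ library. This order rests on Aldh1a1, at 45219.2 in Sox6+ library 103 and 11200.6 in Sox6- library 825. Without Aldh1a1 the sum is higher in Sox6- library 825 than in Sox6+ library 103. All 11 tested dopaminergic markers had a positive fitted difference, but the libraries of only 3 did not overlap. Those of Th, Slc6a3 and Ddc overlapped. The part of GABAergic and dopaminergic marker levels in the Igfbp4 and Igf1 differences was not tested. Igfbp4 lies on chromosome 11 from 99041244 to 99054392 on the plus strand.

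Igfbp3, the main carrier of IGFs in blood, was read in every library but one. It lay at 203.2, 0 and 255.1 in Sox6+ libraries 103, 825 and 1211, against 178.4, 121.9 and 174.4 in Sox6- libraries. The Sox6+ libraries lay on either side of the Sox6- ones, with 103 and 1211 above and 825 below. A count of 0 in library 825 allows up to 3 reads, or 3.42 normalized, by counting error only. Only 9 of 7525 genes (0.12%) with at least 100 in each of the other 5 libraries were at 0 there, among them Gad1, Gad2, Crhbp, Kcnip1, Nhlh2 and Gulo, named after their values were seen. That 0 decides the fitted difference, which was -2.07 with a standard error of 2.28 and turned to 0.54 without library 825. In edgeR and DESeq2 on recovered reads the log2 difference was -0.05. Whether transcripts were lost in library 825 was not tested.

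Igfbp2, a binding protein of glia, choroid plexus and some neurons, lay at 255.5, 105.9 and 292.9 in Sox6+ libraries 103, 825 and 1211, against 217.8, 46.3 and 235.6 in Sox6- libraries. Library 825 was the lowest of each group, 2.77-fold under the highest in Sox6+ and 5.09-fold in Sox6-, so the libraries of each group spread more widely than the group means, at 218.1 in Sox6+ and 166.6 in Sox6-, differed. The groups differed by 0.57 on the log2 scale (SE 0.661), and by -0.18 without Sox6- library 825. Astrocyte markers, a list of 10, summed to between 706.0 and 1056.3 in Sox6+ and between 504.5 and 714.0 in Sox6- libraries, mostly Slc1a2, while Gja1 was at 0 in every library. Choroid plexus and ependymal markers, a list of 10, summed to 140.1, 94.5 and 5541.9 in Sox6+ libraries 103, 825 and 1211. In Sox6- libraries the sums were 128.6, 174.2 and 1210.3, so library 1211 was the highest of each group. The part of astrocytes and of choroid plexus and ependymal cells in Igfbp2 was not tested.

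Igfbp5, the most conserved of the binding proteins and one that binds to matrix, lay at 254.5, 384.9 and 670.9 in Sox6+ libraries 103, 825 and 1211, against 203.4, 302.1 and 375.6 in Sox6- libraries. Each Sox6+ library was above the Sox6- library of its number, but the groups overlapped. The groups differed by 0.50 on the log2 scale (SE 0.374), with 0.32, 0.35 and 0.84 between libraries of the same number. Igfbp5 and Igfbp2 are neighbours on chromosome 1, 5457 bases apart, and point towards each other. Their order over the numbers differed, since 825 was the lowest library for Igfbp2 and the middle one for Igfbp5.

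Igfbp6, which prefers IGF2, had no read in Sox6+ neurons and 20, 0 and 5 in Sox6- libraries 103, 825 and 1211. With 3 reads set as the floor for the Sox6+ group, the pooled reads, relative to depth, were 8.39-fold lower in Sox6+ neurons. That fold takes in neither the counting error of the Sox6- reads nor the spread between libraries, so it is not a lower bound. Of its 25 reads, 20 came from 1 library, and Sox6- library 825 had none either.

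**Figure D2:**
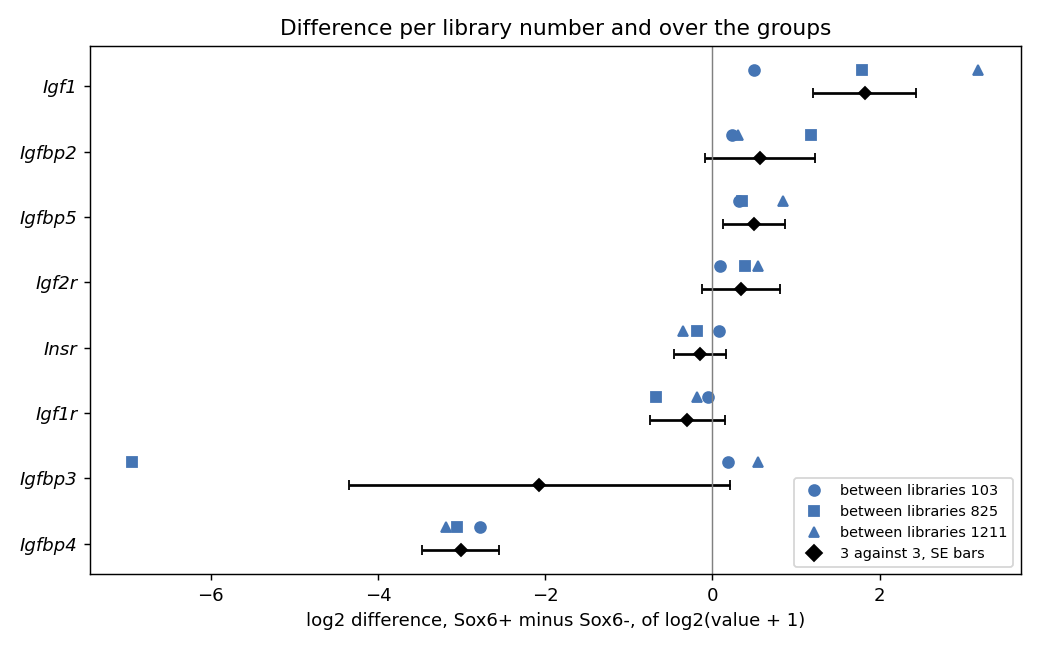
Log2 difference, Sox6+ minus Sox6-, of log2(value + 1) for the 8 tested IGF system genes; blue marks compare libraries of the same number, and the black diamond with SE bars compares 3 libraries with 3. The blue marks of Igfbp4 stay between -3.19 and -2.78, those of Igf1 spread from 0.50 to 3.18, and the square of Igfbp3 stands far left because the gene was at 0 in Sox6+ library 825.

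Levels of different genes were compared as normalized reads per kilobase of merged exons. On this scale Igf1 at 118.3 ± 21.2 and Igfbp2 at 118.1 ± 53.6 led in Sox6+ neurons (SD, n = 3), followed by Igfbp5 at 72.7, Igfbp3 at 48.8, Insr at 9.26, Igfbp4 at 7.72, Igf2r at 6.52 and Igf1r at 6.15. The libraries of each of these genes overlapped with those of its neighbour in the order. In Sox6- neurons Igfbp2 at 90.2 ± 56.6 and Igfbp4 at 65.0 ± 30.1 led (SD, n = 3), before Igfbp3 at 50.5, Igfbp5 at 48.9, Igf1 at 41.9, Insr at 10.2, Igf1r at 7.20, Igfbp6 at 7.14 and Igf2r at 5.12. There the libraries of Igf1 lay above those of Insr, and those of Insr above those of Igf1r, while the other neighbours down to Igf2r overlapped. Igfbp4 thus stood 6th of 10 in Sox6+ neurons and 2nd in Sox6- neurons, and Igf1 stood 1st and 5th.

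Set against all tested genes, the receptors were low. Their level per kilobase exceeded that of 13.7% (Igf1r), 19.7% (Insr) and 14.5% (Igf2r) of tested genes in Sox6+ neurons, and that of 14.7%, 19.8% and 10.3% in Sox6- neurons. The figure for Igf1 was 68.2% in Sox6+ and 48.3% in Sox6- neurons, and for Igfbp4 it was 16.8% in Sox6+ and 57.0% in Sox6- neurons. Igfbp4 made up 3.0%, 3.88% and 2.94% of the summed per-kilobase level of the 5 binding proteins in Sox6+ libraries 103, 825 and 1211, against 19.1%, 27.1% and 28.4% in Sox6- libraries. Igf1 per kilobase was 13.6, 29.1 and 10.2 times Igfbp4 in Sox6+ libraries, and 1.36, 0.971 and 0.121 times in Sox6- libraries. The ligand transcript outweighed that of this binding protein in every Sox6+ library, and in Sox6- libraries the pair ranged from near parity to the reverse.

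**Figure D3:**
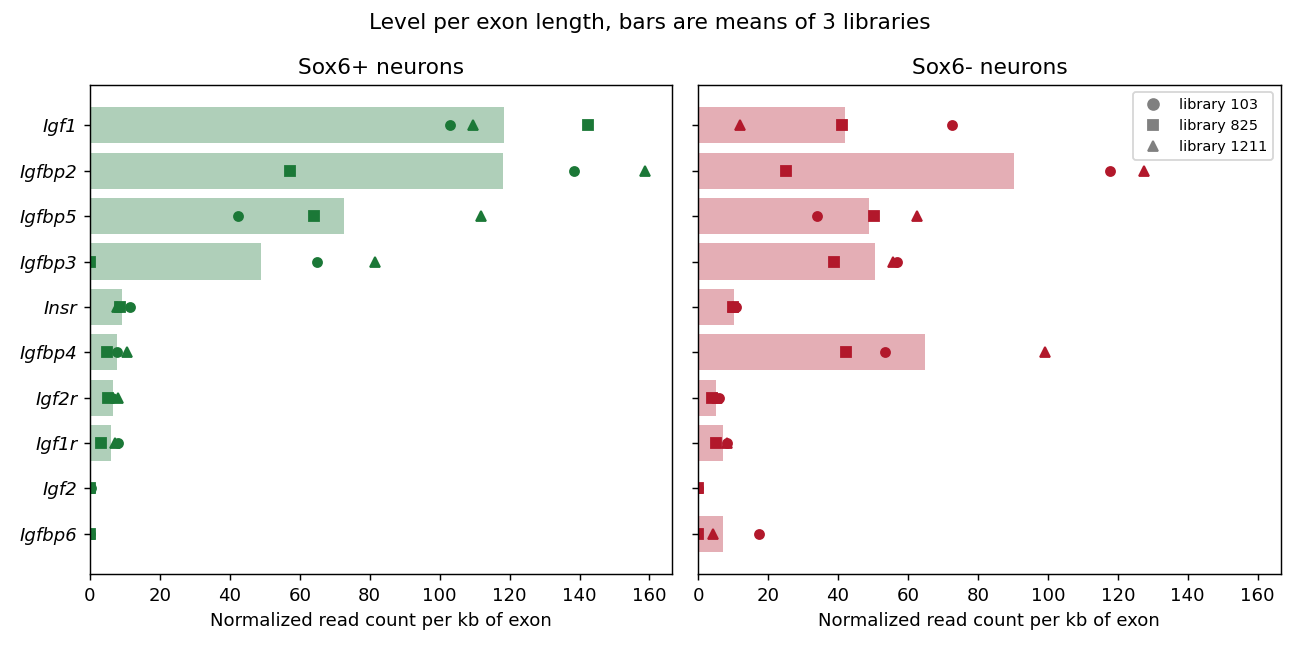
Normalized read count per kilobase of merged exons (linear axis) for the 10 IGF system genes in Sox6+ (left) and Sox6- (right) neurons; bars are means of 3 libraries and points are libraries. Igf1 and Igfbp2 lead at 118.3 and 118.1 in Sox6+ neurons, Igfbp4 averages 7.72 in Sox6+ against 65.0 in Sox6- neurons, while the means of the 3 receptors are at most 10.2 in each group.

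The genes whose pattern over the 6 libraries was most like that of Igfbp4 were Fam110a, Cbln4 and Pde8b, with Pearson r of 0.998, 0.996 and 0.995 on the log2 scale. Cbln4, a secreted cerebellin that organizes synapses, lay at 241.7, 160.6 and 349.3 in Sox6+ libraries 103, 825 and 1211, against 1230.8, 1308.2 and 2233.3 in Sox6- libraries. Pde8b, a cyclic AMP phosphodiesterase, averaged 62.1 ± 16.6 in Sox6+ and 231.8 ± 62.4 in Sox6- neurons (SD, n = 3 each). Like Igfbp4, Cbln4 and Pde8b were lowest in library 825 and highest in library 1211 among the Sox6+ libraries. For Igf1 the nearest were Mtch2, Pgpep1 and Nras, at 0.99, 0.989 and 0.988. Nras, a RAS protein below growth factor receptors, lay at 297.9, 290.4 and 271.7 in Sox6+ libraries, against 239.8, 186.3 and 123.3 in Sox6- libraries. Of 9745 other genes, 216 had r of at least 0.9 with Igfbp4 and 194 with Igf1, all over the same 6 libraries.

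The rest of the insulin and IGF pathway showed no gene past the threshold in limma. Of 73 listed genes that are not members, 58 were tested and 0 passed in limma, while 9 had an unadjusted p under 0.05, as did 11.4% of all tested genes. EdgeR called 0, and DESeq2 on recovered reads called 3 (Ghrh, Socs2 and Stc1), where it called 2.94% of all tested genes. In the authors' deposited DESeq2 results these genes had adjusted p of 6.2e-06, 0.000595 and 0.0235, in that order. With limma, Stc1 passed without Sox6+ library 103 and Ghrh without Sox6- library 103. The median log2 difference of the 58 was 0.01, beside -0.02 over all tested genes, and their median size was 0.37 beside 0.32. In 48 of the 58 the difference was smaller than 1 log2 unit. The libraries of 4 of the 58 did not overlap with higher and those of 8 with lower values in Sox6+ neurons. The shares over all tested genes were 7.86% and 9.19%.

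Among ligands, binding factors and the growth hormone axis, 5 of 14 listed genes were tested, 0 passed and the median log2 difference was -2.78. Ghrh, the hypothalamic releasing hormone for growth hormone, lay at 26.6, 10.2 and 4.62 in Sox6+ libraries, against 55.6, 300.1 and 663.1 in Sox6- libraries (adjusted p = 0.131, limma). Stc1, a stanniocalcin that inhibits PAPP-A, lay at 59.2, 11.4 and 14.8 in Sox6+ libraries, against 299.3, 99.7 and 124.3 in Sox6- libraries (adjusted p = 0.173, limma). The libraries of each gene were separate between the groups, as were those of Igfbp7, an IGFBP-related protein, at 1.32 ± 2.28 in Sox6+ and 29.5 ± 22.9 in Sox6- neurons (SD, n = 3 each; adjusted p = 0.386, limma). The other tested genes of this list were Pappa, the gene of PAPP-A, at 107.8 ± 55.7 in Sox6+ and 119.6 ± 65.3 in Sox6- neurons (SD, n = 3 each), and Ghr, the growth hormone receptor, at 201.6 ± 33.7 in Sox6+ and 213.1 ± 83.2 in Sox6- neurons (SD, n = 3 each). Igfbp1, Igfals and Ins1 were at 0 in every library.

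Of 25 adaptors and PI3-kinase genes, 22 were tested, with a median log2 difference of 0.02 and 0 past the threshold. Socs2, a feedback inhibitor of growth hormone signalling, lay at 323.6, 497.6 and 324.4 in Sox6+ libraries, against 138.1, 144.0 and 90.9 in Sox6- libraries. Its groups were apart, and its log2 difference of 1.61 with a standard error of 0.31 had the smallest adjusted p of the pathway, 0.079 (limma). Irs1, which links the receptors to PI3-kinase, averaged 295.5 ± 118.5 in Sox6+ and 127.1 ± 82.8 in Sox6- neurons, with overlapping libraries (SD, n = 3 each; adjusted p = 0.33, limma). Pik3r1, the main regulatory subunit of PI3-kinase, averaged 237.4 ± 30.2 in Sox6+ and 407.6 ± 113.9 in Sox6- neurons (SD, n = 3 each; adjusted p = 0.333, limma).

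Further down the pathway most differences were small. In the AKT, mTOR and FoxO branch 2 genes differed more than 2-fold, named after their values were seen. They were Eif4ebp1, with a log2 difference of 1.61 (SE 1.01), and Foxo6, with -1.08 (SE 1.69). Of 25 genes of the AKT, mTOR and FoxO branch, 23 were tested, with a median of 0.13 and 0 past the threshold. Among those of smallest p were Rps6kb1, the ribosomal S6 kinase, and Tsc1, an inhibitor of mTOR complex signalling, with log2 differences of 0.44 and -0.58 and adjusted p of 0.452 and 0.52 (limma). Of 9 RAS and MAP kinase genes, 8 were tested, with a median of 0.03 and 0 past the threshold. Hras was not tested because the deposited table has no row under that symbol. Nras and Mapk3 were among those of smallest p there, with log2 differences of 0.69 and 0.39 and adjusted p of 0.424 and 0.528 (limma).

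**Figure D4:**
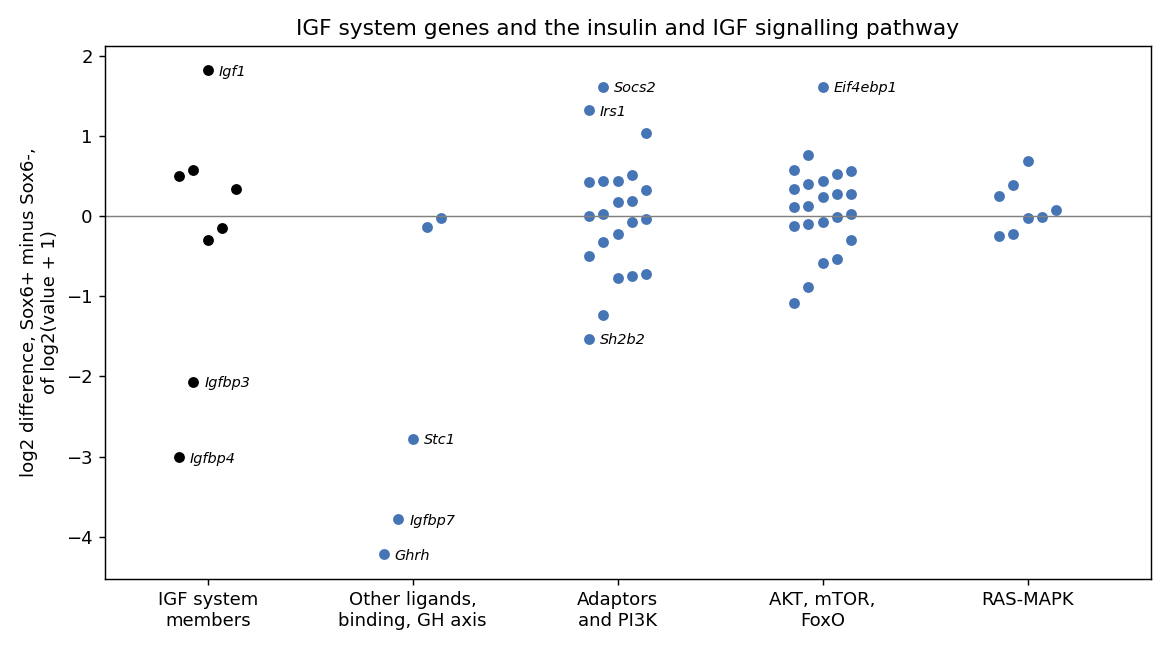
Log2 difference, Sox6+ minus Sox6-, of log2(value + 1) for the 8 tested IGF system genes (black) and the 58 tested genes of the pathway in 4 lists (blue); each point is 1 gene and the larger differences are named. Most pathway genes lie within 1 log2 unit of 0, and Ghrh, Igfbp7 and Stc1 lie lowest, beside Igfbp4 among the members.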

How the data were processed

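Poly(A) libraries were made with the stranded TruSeq mRNA kit from papain-dissociated, sorted neurons, per the labels' protocols. Tools named in the submitters' processing notes are STAR, HTSeq, DESeq2, cutadapt and FastQC, with GRCm38 and mm10 as builds; for versions and the strand setting of counting, the sources used here give nothing. The file deposited by the authors is a table of a normalized signal (reads divided by a size factor) for 6 libraries. It also holds the authors' log2 fold change (Sox6- over Sox6+), the standard error and test statistic, each a score, and the p-value, raw and adjusted. In each library 100% of values above 0 were whole multiples of its step, within 0.01 of a read, and whole reads were recovered from them. For Sox6- library 825 the step of 1.007 is too near 1 for an automatic check.

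Genes with a mean of at least 10 (13175) were tested with limma on log2(value + 1), with trend and robust moderation, 2-sided, no block, and Benjamini-Hochberg adjustment over all of them at 0.05. A difference on this scale understates the change of low genes. The members, lists and tests were chosen with earlier results of these data known. Named genes were the 10 members, Sox6, the 3 of smallest p in each pathway list, and the 3 genes of highest Pearson r with Igfbp4 and Igf1 among genes with a mean of at least 50; others are named for their known roles or, in the pathway figure, for the size of their difference after it was seen. Some genes that fall under this rule are not reported here. In simulated counts for Sox6+ against Sox6- (13175 genes, 200 changed, 3 runs), limma recovered 10.5% of 2-fold, 55.3% of 4-fold and 84.8% of 16-fold changes, with 8 false calls per run. Libraries correlated at 0.7544 to 0.9203 (Pearson, log2), so no pair held the same values. Pairs with Sox6+ library 825 ran from 0.7544 to 0.8446, and pairs without it from 0.8762 to 0.9203. Alternatives tried were a block for the library number, pseudocounts 0.5 and 8, other filters, TMM scaling, edgeR and DESeq2 on recovered reads, exon length, and leaving out each library. Positions come from GENCODE M21 (GRCm38), with 20953 symbols matched. Software was Python 3.11.15 and R 4.3.3 with DESeq2 1.42.0, edgeR 4.0.16 and limma 3.58.1.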

Additional observations from a re-analysis of the deposited data

How the results depend on the processing

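The number of genes past the threshold, 40 in the fit as reported, was 267 with the library number as a replicate block, 69 with a pseudocount of 8, 21 with no filter, 6 with edgeR, 387 with DESeq2 and 120 with edgeR and the replicate block, and ran from 1 to 162 when single libraries were left out (1 without Sox6- library 1211, 162 without Sox6+ library 103). Pathway genes past the threshold, 0 as reported, were 2 with the replicate block, 3 with DESeq2, 1 with edgeR and the block, and 0 to 1 without single libraries. Of the members, 1 passed as reported and 0 with no filter or with edgeR, and 0 to 1 without single libraries, since Igfbp4 passed without Sox6+ library 103 and not without any other 1 library. The causes were not tested. Same-numbered libraries deviated together with r of 0.268, 0.172 and 0.0789 for 103, 825 and 1211, the last too low to take the numbers as pairs, although each library correlated best with its own number. Igf1 kept a positive and Igfbp4 a negative difference under all 15 alternatives, from 1.10 to 2.39 and from -3.27 to -2.66. Igf1r, Igfbp2 and Igfbp3 each changed sign under 1 alternative. With the longest transcript as the length, 13 of 20 places in the 2 orders of level stayed, and 15 to 20 without single libraries. The depth leaves Igf2 and Igfbp6, at 2 and 25 reads over all libraries, undecided.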
